A study of Mus musculus with 71 samples.

Results

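Imprinted genes are expressed mainly from 1 of the 2 parental copies. A differentially methylated region, set in the egg or the sperm and kept through every later division, usually decides which copy is active, and most imprinted genes lie in clusters that share such a region. In embryonic stem cells the marks are held by ZFP57 and its partner TRIM28 together with the DNA methyltransferases, and cultured lines are known to gain or lose them, the Dlk1-Dio3 cluster with the noncoding gene Meg3 being the case most often met. The 42 imprinted genes described here were selected on the known imprinted status of mouse genes and on the low Meg3 and Rian RNA of H1-TKO cells, which an earlier look at these RNA-seq data had shown. They come from 18 imprinted clusters. They are 42 genes among 34010 RefSeq accessions, and 88 of those accessions carry their names. Because the same RNA contrast led to the choice, the RNA values of the members are given as a description. Calls of members come from tests across all accessions, and no p-value of a single member is printed.

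The cells were R1 mouse embryonic stem cells (mESCs), either wild type (WT) or a triple knockout (H1-TKO) without H1c, H1d and H1e, genes of the linker histone that binds between nucleosomes. The knockout is a line made with CRISPR/Cas9 and grown from picked single-cell clones, so that any property of the clone is part of each comparison. Both genotypes were grown in serum with LIF on gelatin, and no age or treatment was given for these samples. Poly(A) RNA was sequenced in 2 libraries per genotype, and H3K27me3 ChIP-seq, which maps the histone mark of Polycomb, was used as 1 deposited peak list per genotype. The tables of the 4 RNA-seq libraries carry the genotype in their headers, and the sample labels reverse it. WT and H1-TKO are used here as the table headers give them, every direction in RNA would reverse under the sample labels, and the genotypes were not checked by an independent measurement.

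The recovered reads ran from 6951619 to 10538507 per library. H1f3 (H1d) had 5 and 38 reads in WT replicates 1 and 2 and 1 and 0 reads in the H1-TKO libraries, H1f4 (H1e) had 7 and 18 against 0 and 2, and H1f2 (H1c) had 15 and 52 against 17 and 7. Histone mRNAs mostly lack a poly(A) tail, and these few reads do not settle which libraries are H1-TKO. WT replicate 2 stood apart, with 11.8% of its reads on 1 accession without a gene symbol, against 1.98% to 2.08% in the other 3 libraries. Accessions of chromosome 1 had a median log2 fold change 0.52 above that of all accessions, and those of chromosomes 8 and 11 lay 0.22 and 0.35 below it (−0.22 and −0.35). All folds below are of H1-TKO against WT on the log2(normalized count + 1) scale, which understates the change of low genes.

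Which members could be read depended on how they are annotated. With a mean of at least 10 normalized counts over the 4 libraries as the minimum, 25 accessions of 24 members were tested with limma and 18 members were not. Of the 23 members with 1 accession 21 were tested, and of the 19 members with several accessions 3 were, namely Meg3, Grb10 and Nnat. Among the 18 left out, Dlk1, H19, Usp29, Peg10, Sgce, Snrpn, Cdkn1c, Tssc4, Zdbf2, Slc22a18 and Kcnk9 had fewer than 10 reads in the 4 libraries together. Their low values cannot be read as silence, because genes that every mESC uses are listed at 0 in the same way, as Nanog with its 4 accessions was. At a Benjamini-Hochberg adjusted p under 0.05 in limma's test across all 11113 accessions, 11 accessions of 10 members were lower in H1-TKO, where 10.7% of all accessions were lower, and 2 were higher, where 9.84% were. Both H1-TKO libraries lay below both WT libraries for 15 of the 25 member accessions, against 34.2% of all accessions, and above both for 6, against 32.2%. Without WT replicate 2 the called member accessions were 15 lower and 4 higher, of 2562 and 2436 in all. The rule that chose the members used this contrast, so nothing is read from these shares. The 6 accessions of Meg3, Mirg, Rtl1, Dio3 and Grb10 whose H1-TKO mean was under 10 were kept only through their WT level.

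**Figure D1:**
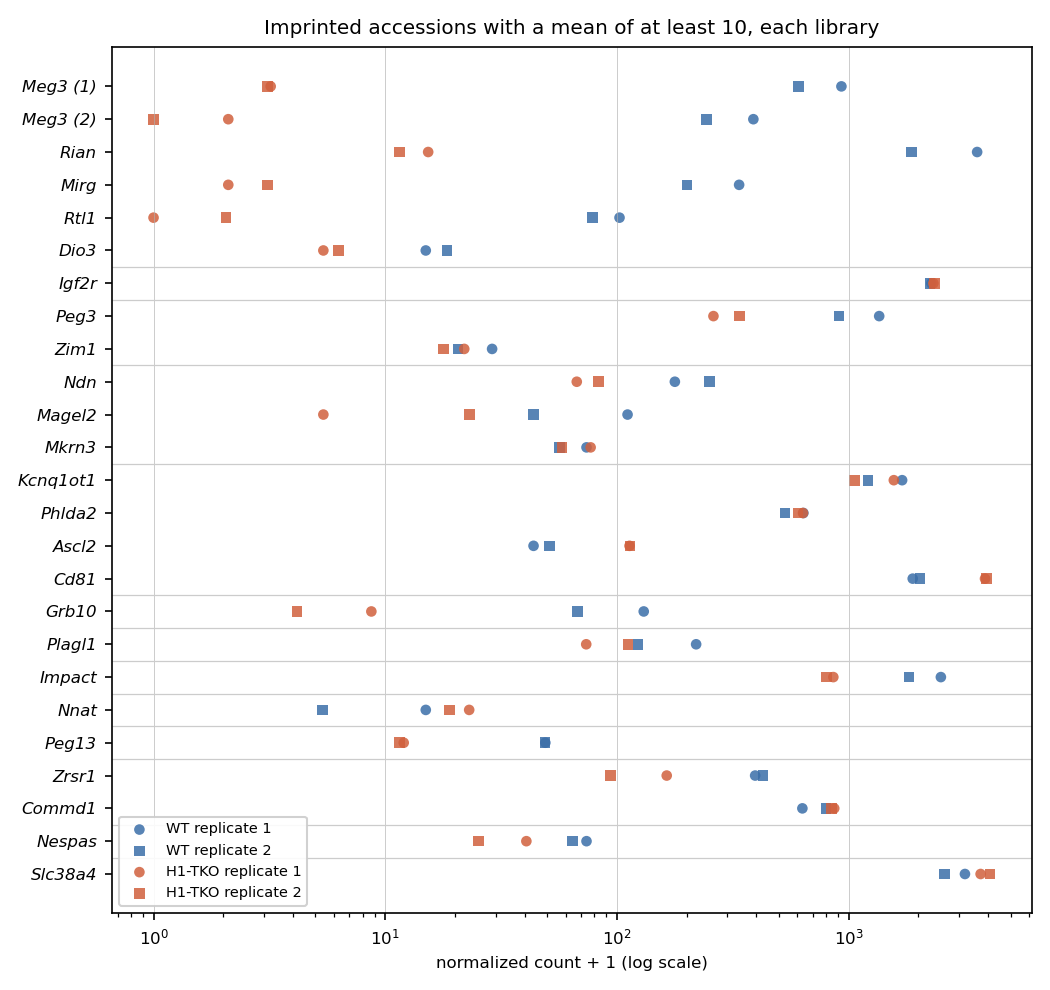
Normalized count + 1 (log scale) of the 25 imprinted accessions that were tested, one row each, with WT libraries in blue and H1-TKO libraries in orange (circles replicate 1, squares replicate 2) and grey lines between clusters. Meg3 (1) and (2) are its 2 readable accessions. The H1-TKO libraries of Meg3, Rian, Mirg and Rtl1 sit at 14.3 or less, the genotypes being those of the table headers, which the sample labels reverse.

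The Dlk1-Dio3 cluster on chromosome 12 (NCBIM37, the same build as mm9) held the lowest of the members' values. Meg3, from 110779211 to 110809936 on the plus strand, is a noncoding RNA of the maternal copy, and it opens a long maternal transcript that also gives Rian, Mirg, snoRNAs and many microRNAs. The stretch of 250 bases before its RefSeq start is shown because all the RNAs below are known to depend on this end of the cluster. It lies on the plus strand at chr12:110778956-110779205 (RefSeq window of GRCm38.p6, found once in NCBIM37), with each CpG in capitals.
Meg3 promoter: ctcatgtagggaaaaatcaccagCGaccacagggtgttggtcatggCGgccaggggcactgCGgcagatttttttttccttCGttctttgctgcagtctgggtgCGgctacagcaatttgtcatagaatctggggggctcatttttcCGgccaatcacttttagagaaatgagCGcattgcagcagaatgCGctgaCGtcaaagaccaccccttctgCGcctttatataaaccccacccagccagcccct
It holds 10 CpG and 1 match to TGCCGC on either strand, the 6 letters that ZFP57 recognises when methylated.

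Meg3 accession NR_003633 had 930.2 and 607.6 normalized counts in WT against 2.2 and 2.1 in H1-TKO. The second accession, NR_027652, had 387.1 and 242.1 in WT and 1.1 and 0.0 in H1-TKO, and the remaining one was listed at 0 in all libraries. For both readable accessions no H1-TKO value came near a WT value. Their log2 fold changes were −7.90 ± 0.39 (SE, n = 2 per genotype) and −7.73 ± 0.60. As reads, 1756 in WT faced 4 in H1-TKO on the first accession, a ratio of 370-fold with a 95% exact interval of 144 to 1358, and 721 faced 1 on the second, a ratio of 607-fold (109 to 24009). These intervals cover counting error only.

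Rian, from 110842155 to 110899919, is the host of a large array of C/D-box snoRNAs. It had 3587.4 and 1869.6 normalized counts in WT against 14.3 and 10.5 in H1-TKO, a log2 fold change of −7.61 ± 0.34. The ratio of reads was 232-fold (154 to 366), from 6338 reads against 23, so a trace of the RNA was still counted in both H1-TKO libraries. Mirg, from 110973191 to 110987665, hosts the microRNAs at the far end of the unit. It had 335.9 and 199.6 in WT and 1.1 and 2.1 in H1-TKO, with a ratio of 173-fold (58.9 to 841) from 616 reads against 3 and a log2 fold change of −6.67 ± 0.52. WT replicate 1 was above WT replicate 2 by 1.53 and 1.60 times for the Meg3 accessions, 1.92 times for Rian and 1.68 times for Mirg, which is small beside the distance between the genotypes.

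Rtl1, from 110827404 to 110838540 on the minus strand, is a retrotransposon-derived protein gene of the paternal copy. It had 101.6 and 77.4 normalized counts in WT against 0.0 and 1.1 in H1-TKO, a log2 fold change of −5.97 ± 0.71. The ratio of reads was 170-fold with an interval of 30.2 to 6750, since H1-TKO had 1 read. The strand used in the authors' counting is not given in the sources used here, and a maternal antisense RNA of the same unit crosses Rtl1, so these reads cannot be given to 1 strand or 1 parental copy. The other protein genes of the cluster are Dlk1, a paternally expressed inhibitor of differentiation, and Dio3, a paternally expressed enzyme that inactivates thyroid hormone. Dlk1 had 1 read in all and cannot be read. Dio3, from 111517278 to 111519307, had 14.0 and 17.5 in WT and 4.4 and 5.3 in H1-TKO. Its genotypes did not overlap, but its log2 fold change of −1.51 ± 0.69 did not pass limma's threshold, and it rests on 34 reads against 9.

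The small RNAs of the unit had almost no reads in H1-TKO. In gene order between Meg3 and Mir3072 the table lists 60 microRNA hairpins and 7 snoRNAs. Of the hairpins 39 had a read in WT and 5 in H1-TKO, and their summed level was 134.2 and 117.8 in WT and 3.3 and 6.3 in H1-TKO. All 7 snoRNAs had reads in WT, 1250 together, and none had a read in H1-TKO. Most of these were on AF357359, with 635.4 and 344.7 in WT and 0.0 in both H1-TKO libraries, so that it was at least 319-fold higher in WT against a floor of 3 reads over both H1-TKO libraries. Poly(A) libraries do not capture mature microRNAs or snoRNAs, so these reads are from longer RNA that covers the same bases. They were not counted on the mature forms.

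The hairpins that reached a WT mean of 10 were Mir493, Mir453 and Mir3072, with 8.5 and 15.3, 17.1 and 13.1, and 10.9 and 14.2 normalized counts. Mir493 and Mir453 had none in H1-TKO, which makes them at least 7.02-fold and 9.54-fold higher in WT, and Mir3072 had 1 read there. The bounds are a description, since these hairpins were picked by their WT level alone. Their mature forms (RefSeq) are shown to identify these hairpins, the best covered of the unit, with the seed, bases 2 to 8 from the 5′ end, in capitals.
miR-493-5p: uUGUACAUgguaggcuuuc
miR-493-3p: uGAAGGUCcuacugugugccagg
miR-453: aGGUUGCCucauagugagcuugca
miR-3072-5p: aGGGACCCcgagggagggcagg
miR-3072-3p: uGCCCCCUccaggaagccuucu
No seed is shared among the 5.

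Outside the unit from Meg3 to Mir3072, both H1-TKO libraries lay below both WT libraries for Dio3, given above, and for Slc25a47, and above both for Yy1, Slc25a29, Wdr25, Begain and the better covered Ppp2r5c accession. Over all accessions tested 34.2% lay below and 32.2% above in this way. Within 1 Mb of Meg3, taken from RefSeq gene order, 6 accessions outside the cluster were tested: Degs2, Yy1, Slc25a29, Wdr25, Begain and Ppp2r5c. Their log2 fold changes ran from −0.40 to 0.98, and 0 of the 6 passed limma's threshold (10.7% of all accessions were lower and 9.84% higher) or those of edgeR and DESeq2, while 2 had an unadjusted p under 0.05 in limma, both in the upward direction. Yy1, a zinc finger regulator with binding sites in several imprinted loci, had 1222 and 1320 normalized counts in WT against 1583 and 1437 in H1-TKO. Begain, the nearest of them to Dlk1 and a synaptic scaffold gene, had 28.7 and 38.2 against 50.7 and 42.1. Slc25a47, a mitochondrial carrier gene near Yy1 that was under the minimum for a test, had 14.74 and 11.998 against 0.0 and 3.2. The noncoding Dio3os beside Dio3 had 4.7 and 2.2 against 4.4 and 3.2, also under the minimum.

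**Figure D2:**
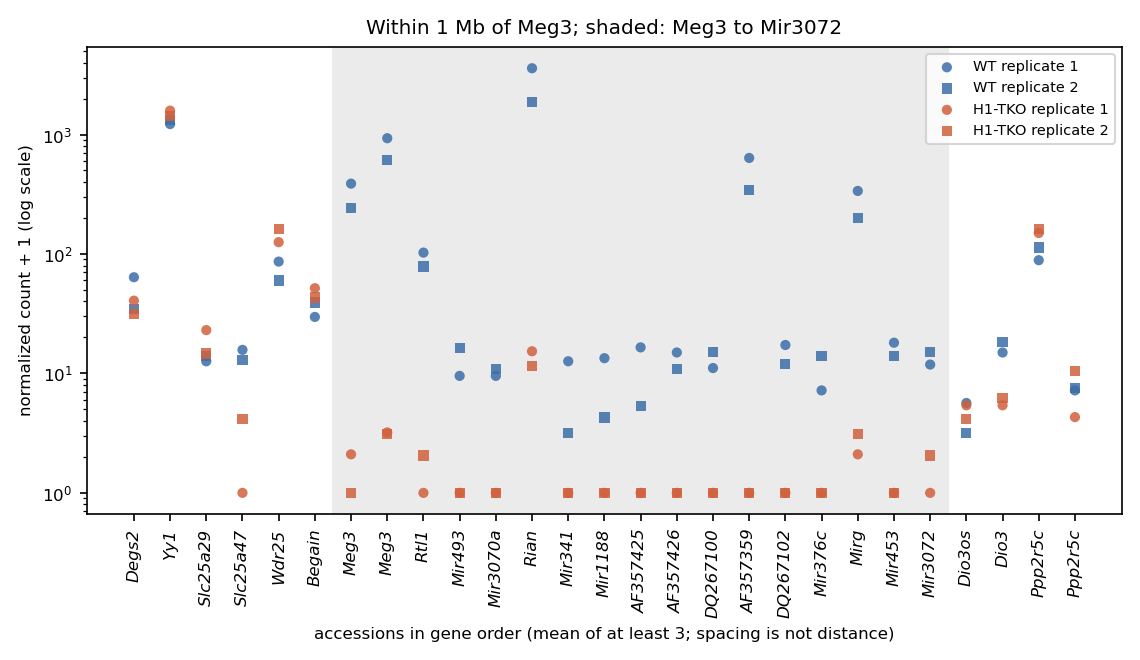
Normalized count + 1 (log scale) of every accession with a mean of at least 3 within 1 Mb of Meg3, in gene order and not to distance, with WT in blue and H1-TKO in orange and the span from Meg3 to Mir3072 shaded. Inside the shading the H1-TKO libraries are at 0 or near it, with Rian highest at 14.3 and 10.5, and outside it Yy1, Slc25a29, Wdr25, Begain and the better covered Ppp2r5c accession are above their WT level. Under the sample labels the colours would change places.

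The place of the unit in the whole table is given as a description only. Meg3 and Rian were chosen on this contrast, and AF357359, the Meg3 accessions, Mirg and Rtl1 passed the minimum only through WT. Ranked from the lowest log2 fold change of 11113 accessions, AF357359 was 1st, Meg3 2nd and 3rd, Rian 4th, Mirg 8th and Rtl1 11th. A log2 fold change of −3 or less with a call was met by 75 accessions, or 0.675%. The members among these were 6, the Meg3 accessions, Rian, Mirg, Rtl1 and, outside this cluster, Grb10. Of the 13 clusters with a tested member 7, Dlk1-Dio3 included, had a member called lower, 1 had members called higher and 5 had no call, while the other 5 of the 18 clusters had no member that could be tested. Beside these counts, 10.7% of all accessions were lower and 9.84% higher. In limma without a trend, lower calls were left in the Meg3, Rian, Mirg and Rtl1 accessions and in Peg13 alone.

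Outside Dlk1-Dio3 the members are taken by the parental copy they are known for. Of 12 paternally expressed accessions tested 5 were called lower and 0 higher in limma, and 0 were higher in edgeR and DESeq2 as well, with 1 higher at an unadjusted p under 0.05 in each tool. Of all accessions 10.7% were lower and 9.84% higher, and since the members were chosen on this contrast nothing is read from the counts. Their median log2 fold change was −1.23 against −0.03 over all accessions tested. The difference between paternal and maternal members was not tested. The 5 were Peg3, Ndn, Impact, Peg13 and Zrsr1. Their log2 fold changes ran from −2.06 to −1.36. Peg3, Ndn, Impact and Zrsr1 lost their call in limma without a trend, Ndn also without H1-TKO replicate 1, and Peg13 lost it without either H1-TKO library and without the minimum on low values.

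Peg3, from 6656603 to 6683132 on the minus strand of chromosome 7, encodes a zinc finger protein with roles in growth and maternal behaviour, and its promoter is shared with Usp29. It had 1354.6 and 907.5 normalized counts in WT against 260.0 and 337.0 in H1-TKO. The genotypes did not overlap, and the log2 fold change was −1.90 ± 0.23. Its maternally expressed neighbour Zim1, also a zinc finger gene, had 27.9 and 19.6 against 20.9 and 16.9, with overlap and a log2 fold change of −0.30 ± 0.51. The 250 bases before the Peg3 start, at chr7:6683131-6683380 on the minus strand, are shown with CpG in capitals as the known imprinted promoter of the pair.
Peg3 promoter: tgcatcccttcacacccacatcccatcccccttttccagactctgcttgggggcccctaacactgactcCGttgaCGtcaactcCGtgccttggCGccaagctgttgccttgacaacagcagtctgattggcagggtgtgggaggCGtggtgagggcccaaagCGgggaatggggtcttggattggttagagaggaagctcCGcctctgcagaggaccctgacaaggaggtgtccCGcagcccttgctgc
They hold 8 CpG and no match to TGCCGC, which says only that these letters are not in this window.

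Ndn and Magel2 are intronless paternal genes of the Prader-Willi region on chromosome 7, both coding for MAGE family proteins. Ndn had 176.9 and 249.8 normalized counts in WT against 66.1 and 82.2 in H1-TKO, a log2 fold change of −1.50 ± 0.29. Magel2 had 110.2 and 42.5 in WT and 4.4 and 22.1 in H1-TKO. The genotypes of Magel2 did not overlap, but both pairs of replicates were far apart, and its log2 fold change of −2.64 ± 0.79 was not called in limma or edgeR but was in DESeq2. It ran from −3.69 without H1-TKO replicate 2 to −1.59 without H1-TKO replicate 1. Mkrn3, a ring finger gene of the same region, had 72.9 and 55.6 against 76.0 and 56.9, with a log2 fold change of 0.05 ± 0.35, so that 3 paternal genes of 1 region did not move together in size.

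Impact, a regulator of the translational stress response, had 2501.2 and 1819.4 normalized counts in WT against 858.3 and 801.5 in H1-TKO. The genotypes were separate and the log2 fold change was −1.36 ± 0.18. Peg13 is a noncoding RNA that starts inside an intron of Trappc9. It had 48.1 and 48.0 in WT and 11.02 and 10.53 in H1-TKO, a log2 fold change of −2.06 ± 0.48. Trappc9, the host, had at most 5.3 normalized counts on any accession, so it cannot be said whether the host moved with it.

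Zrsr1 is an intronless gene for a splicing factor that lies inside an intron of Commd1 on chromosome 11, and the promoter of Zrsr1 is the imprinted region of the pair. Zrsr1 had 394.1 and 425.4 normalized counts in WT against 163.1 and 92.7 in H1-TKO, with a log2 fold change of −1.73 ± 0.29. Its host Commd1, a copper metabolism gene that favours the maternal copy in some tissues, had 630.7 and 798.4 against 866.0 and 844.7. Commd1 lay above WT in both H1-TKO libraries by a log2 fold change of 0.27 ± 0.17, which was not called, so the 2 genes of the pair stood on opposite sides of 0. Chromosome 11 as a whole was lower by a median of 0.35 relative to all accessions (−0.35), and its part in the value of Zrsr1 was not tested. The 250 bases before the Zrsr1 start, at chr11:22871755-22872004 on the plus strand, are shown with CpG in capitals.
Zrsr1 promoter: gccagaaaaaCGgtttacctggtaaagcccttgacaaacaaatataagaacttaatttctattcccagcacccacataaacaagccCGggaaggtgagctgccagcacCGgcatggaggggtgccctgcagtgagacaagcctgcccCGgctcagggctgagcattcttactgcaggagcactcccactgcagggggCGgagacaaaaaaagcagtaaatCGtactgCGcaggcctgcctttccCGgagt
They hold 8 CpG and no match to TGCCGC.

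The other 7 paternal accessions outside Dlk1-Dio3, Magel2 and Mkrn3 among them, were not called in limma, and of these DESeq2 called Magel2 alone. Kcnq1ot1, the noncoding RNA that silences genes of its cluster in cis, had 1701.4 and 1210.7 normalized counts in WT against 1566.8 and 1057.4 in H1-TKO, with overlap and a log2 fold change of −0.16 ± 0.23. Slc38a4, an amino acid transporter gene, had 3177.7 and 2588.4 against 3713.1 and 4083.3, a log2 fold change of 0.44 ± 0.14. Plagl1, a zinc finger gene said to sit at the centre of a network of imprinted genes, had 218.8 and 122.2 against 72.7 and 110.6, a log2 fold change of −0.86 ± 0.37. Slc38a4 thus lay above WT in both H1-TKO libraries and Plagl1 below it in both. Nespas, an antisense RNA of the Gnas cluster, had 72.9 and 63.3 against 39.7 and 24.2 (−1.11 ± 0.41). Nnat, a membrane proteolipid gene, had 14.0 and 4.4 against 22.0 and 17.9 (1.22 ± 0.72) on 1 of its 5 accessions, the others being listed at 0.

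Kcnq1ot1 starts within Kcnq1 and runs against it, and with the strand of counting not given its reads cannot be separated from Kcnq1 precursor RNA. The 250 bases before its start, at chr7:150482453-150482702 on the minus strand, are shown because its RNA did not differ beyond the spread of replicates.
Kcnq1ot1 promoter: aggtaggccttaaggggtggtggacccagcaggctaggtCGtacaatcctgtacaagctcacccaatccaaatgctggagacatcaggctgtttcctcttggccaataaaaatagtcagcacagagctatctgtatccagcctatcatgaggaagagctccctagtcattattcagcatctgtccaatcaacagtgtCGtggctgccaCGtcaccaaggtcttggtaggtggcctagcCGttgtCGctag
With CpG in capitals, they hold 5 CpG and no match to TGCCGC. Over the 49 RefSeq windows of 300 bases found for 32 members, 12 held the motif (24.5%), against 11.6% of 32851 windows of all genes, and the median number of CpG was 15 against 7. These counts include several windows for some genes, and windows of 1 gene can overlap.

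The maternally expressed members outside Dlk1-Dio3 went both ways. Of 7 accessions tested 1 was called lower and 2 higher in limma, where 10.7% of all accessions were lower and 9.84% higher, and their median log2 fold change was 0.09 against −0.03 over all. Counts of this size on chosen members are a description. Grb10, an adaptor that restrains insulin and growth factor signalling, had 129.6 and 66.5 normalized counts in WT against 7.7 and 3.2 in H1-TKO. These are from 1 of its 2 accessions, the other being listed at 0 in all libraries. The log2 fold change was −3.96 ± 0.61, a call lost in limma without a trend, and the ratio of reads 19.2-fold (10.2 to 40.6), from 228 against 10. Grb10 also lies on chromosome 11, from 11830511 to 11938686 on the minus strand, and the part of the shift of that chromosome (−0.35) in its value was not tested. Igf2r, the receptor that clears IGF2, had 2274.7 and 2248.1 against 2321.5 and 2341.3, a log2 fold change of 0.04 ± 0.12. Its antisense partner Airn had at most 4.7 normalized counts and was not tested.

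The 2 members called higher, Cd81 and Ascl2, belong to the Kcnq1ot1 cluster. Cd81, a tetraspanin of the cell surface, had 1890.7 and 2034.3 normalized counts in WT against 3879.4 and 3929.6 in H1-TKO, a log2 fold change of 0.99 ± 0.12. Ascl2, a transcription factor needed by the placenta, had 42.7 and 50.2 in WT and 112.4 and 112.7 in H1-TKO, a log2 fold change of 1.26 ± 0.31. For both genes the replicates were closer to each other than to the other genotype. Both lost their call in limma without a trend, and Ascl2 also without either H1-TKO library and without the minimum on low values. Phlda2, which limits placental growth and lies in the same cluster, had 636.9 and 531.2 against 634.6 and 604.5, with a log2 fold change of 0.09 ± 0.16. So 2 genes of this cluster were higher while Phlda2 and Kcnq1ot1 overlapped between genotypes, and Cdkn1c, Tssc4 and Slc22a18 could not be read.

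**Figure D3:**
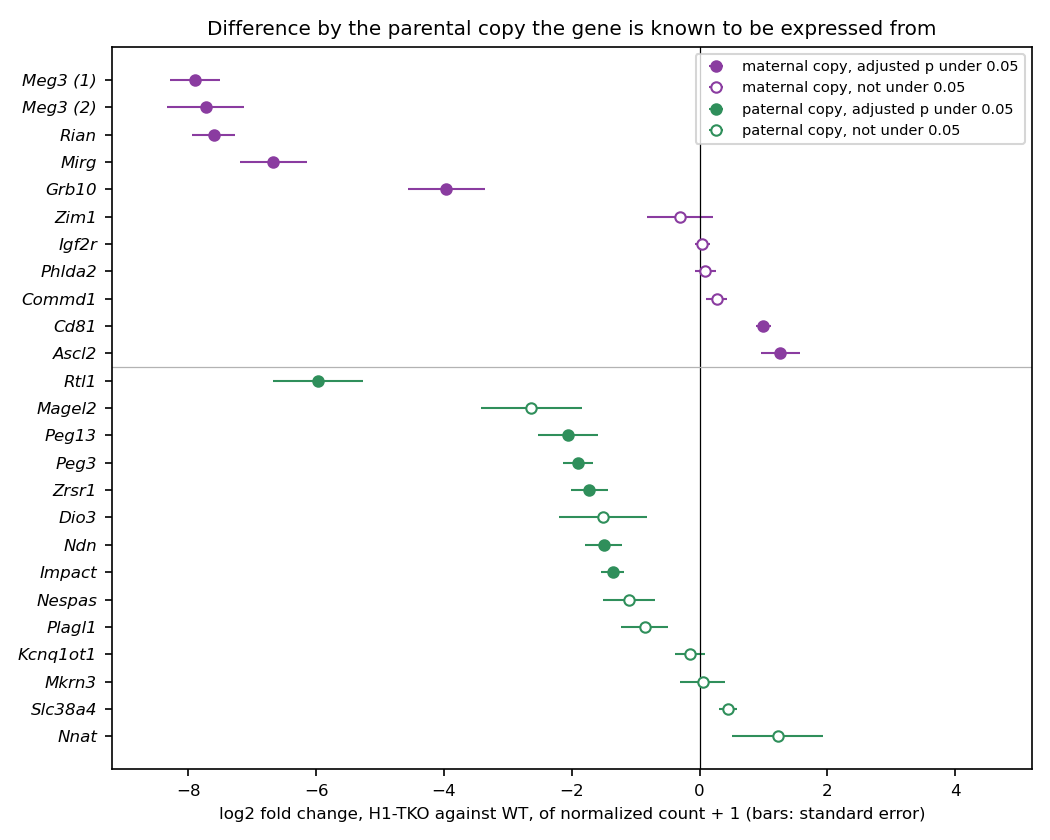
Log2 fold change of H1-TKO against WT with its standard error (n = 2 libraries per genotype) for the tested members, with genes known to be expressed from the maternal copy above the line and from the paternal copy below it. Filled points passed an adjusted p under 0.05 in limma. Meg3, Rian, Mirg and Rtl1 lie at −5.97 or lower, Grb10 at −3.96, and the remaining members from −2.64 to 1.26. The parental copy is textbook knowledge and was not measured, and the sample labels would reverse each sign.

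Among the members too low to test a few values can be given. Igf2, the fetal growth factor, had 13.2 and 6.5 normalized counts on its best covered accession in WT against 1.1 in each H1-TKO library, 23 reads against 2. That is a ratio of 9.68-fold with an interval of 2.39 to 84.7. One Gnas accession, NM_019690, had 21.7 and 8.7 against 1.1 and 0.0, or 36 reads against 1 (30.3-fold, 5.10 to 1230). Other Gnas accessions did not go that way, since NR_003258 had 1.6 and 6.5 in WT and 13.2 and 3.2 in H1-TKO, so the gene as a whole cannot be read from these. Ube3a had 8.5 and 8.7 against 8.8 and 8.4, and Nap1l5 3.9 and 18.5 against 11.02 and 6.32. RNA from all copies is counted together, so no value here says which parental copy was active.

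H3K27me3 was not used to choose the members. Within 2 kb of a transcription start a WT peak was listed for 16 of the 41 members that could be placed (39.0%), against 14.6% of 22025 genes, and an H1-TKO peak also for 16 (39.0%), against 13.4%. With a score of at least 100 the members with a peak were 5 in WT, against 7.82% of all genes, and 6 in H1-TKO, against 6.78%. With a peak on the start itself they were 7 in each list, against 5.83% and 5.05%. The members were searched at starts of GENCODE M1 and of RefSeq windows, the other genes at starts of GENCODE M1 alone. Some members had many starts, with 17 for Gnas. The shares of members and of all genes are therefore not on equal terms, here and below. Members that overlap share peaks: Peg10 and Sgce were given the same ones, and the WT peak of Nespas also counted for Gnas. In 15 members both lists had a peak, Nespas had one only in WT and Phlda2 only in H1-TKO, and 24 had none in either. Each list is 1 replicate, so no difference between them could be tested. The highest score of a peak, −10 times the log10 of its MACS p, was higher in H1-TKO for 6 of the 15 (40.0%) and for 41.4% of the 2413 genes with a peak in both lists. A higher or lower score in these members therefore had about the same frequency as elsewhere.

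No peak lay within 2 kb of the starts of Meg3, Rian, Mirg or Rtl1 in either list. The nearest one to a Meg3 start was 80.6 kb away in WT and 80.7 kb in H1-TKO. Peaks stood at both ends of the cluster instead. At Dlk1 WT had 2 with a top score of 82.7 and H1-TKO 3 with a top score of 56.5, and at Dio3 WT had 2 with a top score of 83.2 and H1-TKO 1 of 154.7. The top scores at Dlk1 are of peaks in different places. Where peaks of both lists overlapped there, the scores were 82.7 in WT and 52.1 in H1-TKO. Between Rian and Mirg the H1-TKO list held 1 peak from 110921408 to 110921569 with a score of 52.2, near the lower limit of the list. A further peak between Mirg and Dio3, from 111425512 to 111427994 in WT, scored 194.6 in WT and 173.0 in H1-TKO.

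Among the 7 tested members with a peak in both lists, the RNA and the top score differed in opposite directions for 6, against 51.9% of 1036 genes tested for RNA with a peak in both lists. These were Dio3, Ndn, Magel2 and Plagl1, with lower RNA and a higher score in H1-TKO, and Ascl2 and Igf2r, with the reverse, while Grb10 was lower in both. This count was made after the values were seen, it takes signs whether or not the RNA was called, and with 1 peak list per genotype it is a description without a test. At Dio3 and Magel2 WT had 2 neighbouring peaks and H1-TKO had 1. The listed width was smaller in H1-TKO, with 6358 bases in WT against 4895 at Dio3 and 1480 against 1276 at Magel2. The part of this splitting of peaks in the scores was not tested. Of the 9 placed members called lower 7 had no peak in either list, against 83% of all genes and 6 of the 12 placed members tested without a call, and Ndn and Grb10 had peaks in both. The top score of Ndn was 62.9 in WT and 63.8 in H1-TKO, that of Grb10 78.1 and 61.9. Ascl2, called higher, had a top WT score of 109.7 against 73.3 in H1-TKO, while Cd81, also called higher, had no peak. Among members without a call, Magel2 went from 74.0 to 168.3, Plagl1 from 66.3 to 91.3, and Igf2r from 126.2 to 75.4. Among the members not tested for RNA, Gnas had the highest score of all members, 359.6 in WT and 249.1 in H1-TKO, Cdkn1c had 160.9 and 106.6, and Igf2 had 53.1 and 138.6 at peaks in different places.

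**Figure D4:**
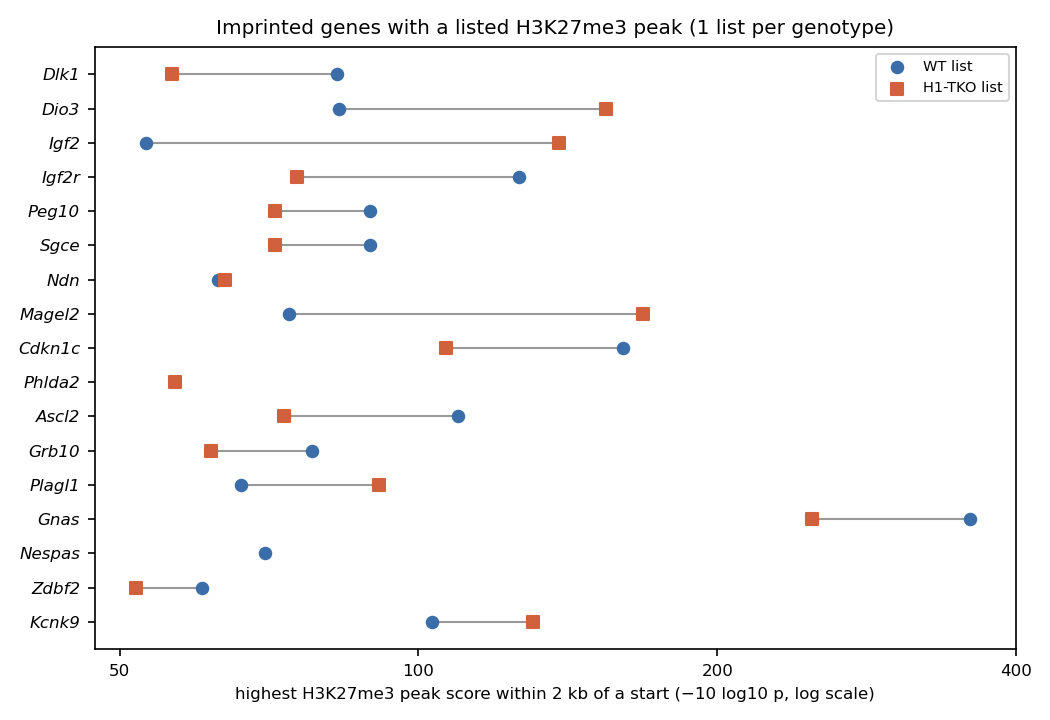
Highest H3K27me3 peak score (−10 log10 of the MACS p, log scale) within 2 kb of a start for the members with a peak in WT (blue circles) or H1-TKO (orange squares), joined where both lists have one. The H1-TKO score is the higher one for 6 of the 15 joined pairs, and there is no replicate behind any point. Joined scores can be of peaks in different places, as at Dlk1 and Igf2.

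The genes that keep imprints were looked at as a list of 18, chosen with earlier results of these data known. Of the 11 that were tested Tet2, an enzyme that oxidises methylated cytosine, fell, 1 of 11 where 10.7% of all accessions were lower, from 1841.8 and 3383.5 normalized counts in WT to 968.5 and 1021.6 in H1-TKO (log2 fold change −1.33 ± 0.26, adjusted p = 0.0154 from limma). None of the 11 rose, where 9.84% of all accessions did, with none at an unadjusted p under 0.05 in the upward direction in limma, edgeR or DESeq2. Zfp57, which guards imprinted regions, had 771.9 and 969.7 against 1070.9 and 1091.1 (0.32 ± 0.16, adjusted p = 0.183 from limma). Trim28, the corepressor that ZFP57 recruits, had 25598.8 and 33780.9 against 28652.2 and 28858.1 (−0.03 ± 0.15, adjusted p = 0.893 from limma). These are levels of RNA, and they do not say how much protein or methylation was present. Dnmt3l, a cofactor of the methyltransferases, had 11.6 and 13.1 against 9.9 and 8.4 on its best covered accession (adjusted p = 0.683 from limma). Dnmt1 had at most 11.998 on any accession, and Dnmt3a and Dnmt3b, with several accessions each, were listed at 0.

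A second list held 34 further imprinted genes, of which 16 were tested. The list gave 5 lower, 2 higher and 9 without a call in limma, where 10.7% of all accessions were lower and 9.84% higher. Its median log2 fold change was −0.81 against −0.03 over all accessions. Pon2, a lactonase gene of the Peg10 region, fell most among the called genes, from 121.0 and 68.7 to 20.9 and 29.5 (−1.83 ± 0.43, adjusted p = 0.0271 from limma). Dhcr7, the last enzyme of cholesterol synthesis, rose most, from 769.6 and 825.7 to 1726.5 and 1557.7 (1.04 ± 0.14, adjusted p = 0.00534 from limma). Mcts2, named after its value was seen, is an intronless paternal gene inside an intron of H13 as Zrsr1 is inside Commd1, and it fell from 319.6 and 314.1 to 148.7 and 121.1 (−1.23 ± 0.22, adjusted p = 0.0116 from limma), while H13 had 121.0 and 103.6 against 48.5 and 64.2 (−0.99 ± 0.32, adjusted p = 0.0643 from limma).

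Lists of cell state markers are given beside these values. Of 10 pluripotency genes 8 were tested, and 4 rose and 1 fell in limma, where 9.84% of all accessions rose and 10.7% fell. Their summed level was 29013 and 41497 normalized counts in WT against 49769 and 50687 in H1-TKO, with Klf4 rising most (1.45 ± 0.38, adjusted p = 0.0371 from limma) and Tdgf1 falling (−0.50 ± 0.13, adjusted p = 0.0336 from limma). Of 10 genes of fibroblasts, the cells of feeder layers, 4 were tested, 2 fell and 1 rose. Their summed level was 571 and 479 in WT and 512 and 576 in H1-TKO, most of the latter from Thy1, so the sum of the list overlapped between genotypes. Without Thy1, the 1 tested marker that rose, the sum was 461.6 and 353.4 in WT against 62.8 and 65.3 in H1-TKO. Most of that WT sum was Acta2 and Col1a1, given below. Col6a3, Postn, Pdgfrb and Dcn, the last of which is also on the list of further imprinted genes, were listed at 0. Col1a1, a chain of type I collagen named after its value was seen, fell from 195.5 and 148.3 to 34.2 and 53.7 (−1.97 ± 0.35, adjusted p = 0.0112 from limma), and Col1a2 had 40.3 and 22.9 against 19.8 and 6.3 without a call. Acta2, the smooth muscle actin, fell from 217.2 and 180.0 to 2.2 and 0.0 (−6.79 ± 0.69, adjusted p = 0.00281 from limma), and Thy1 rose from 109.4 and 125.4 to 449.5 and 510.8 (2.02 ± 0.21, adjusted p = 0.0029 from limma). Of 10 differentiation genes 5 were tested and 0 were called by limma, edgeR or DESeq2, with 1 at an unadjusted p under 0.05 in limma, and their summed level was 138.1 and 132.0 in WT and 80.4 and 85.3 in H1-TKO. In bulk RNA fewer cells of a type and less RNA per cell cannot be told apart. The part of these cell markers, of WT replicate 2 and of the clone in the values of the imprinted genes was not tested.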

How the data were processed

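The tables of 4 RNA-seq libraries, 2 per genotype, were used with 1 list of H3K27me3 peaks for each genotype. The other libraries of the study were not analysed here. The members and lists were chosen with earlier results of these data known.

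For RNA-seq, the authors mapped reads to the mm9 annotation with Subread, kept unique reads, counted them with featureCounts and divided them by a size factor per library (DESeq2). The deposited signal is this normalized count per RefSeq accession. Settings for strand and shared reads are not given in the sources used here. All values (100%) were whole multiples of 1 read, within 0.01 of a read, and the recovered reads numbered 10538507 and 8292007 in WT and 6951619 and 7346122 in H1-TKO. Each table equalled the column of its header's genotype in the study's per-library source data in 100% of 1999 rows, within a relative tolerance of 0.001. The sample labels name the opposite genotypes.

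Symbols came from RefSeq tables of GRCm38.p6 (33650 of 34010 accessions, used for names and gene order) and places from GENCODE M1 (NCBIM37). Of the 42 members 41 matched by symbol and Nespas by a synonym, and Peg13 was not placed. Promoter windows were placed by exact match to NCBIM37, and 32 members had one.

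Accessions with a mean of at least 10 (11113) were tested with limma 3.58.1 (R 4.3.3, eBayes, variance trend, no block) after adding a pseudocount of 1 and taking log2, with Benjamini-Hochberg adjustment. The step was tested on simulated data. The paper describes the 2 libraries of a genotype as biologically independent, and the p-values measure the spread between them. How they were made independent is not given in the sources used here. With 2 libraries against 2 an exact permutation test of 1 gene cannot go below p = 0.333. Ratios of reads have 95% exact binomial intervals. Named genes were all members, the accessions within 1 Mb of Meg3, for each list the called gene with the largest fold in each direction, the imprint keepers given by name, and H1f2, H1f3 and H1f4. Mcts2, H13, Col1a1, Col1a2 and some genes listed at 0 were named outside this rule. Alternatives used other pseudocounts, filters and scalings, edgeR 4.0.16, DESeq2 1.42.0, a replicate block, each library left out, accessions summed per gene, and chromosomes 1, 8, 11 and Y left out.

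For ChIP-seq, the authors aligned reads to mm9 (bowtie2) and ran MACS for each list, and the deposited score is −10 log10 p. A peak was given to a gene within 2 kb of a start in GENCODE M1. For members alone, starts of the placed RefSeq windows were used as well. Other steps used Python 3.11.15 with pandas 2.3.3, scipy 1.17.1, numpy 2.4.6 and matplotlib.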

Additional observations from a re-analysis of the deposited data

How the results depend on the processing

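Over all accessions the main counts were 1094 higher and 1188 lower in H1-TKO, and over member accessions 2 higher and 11 lower. No member that was called changed its direction under any alternative run, and the 6 accessions of Meg3, Rian, Mirg, Rtl1 and Dio3 kept their side of the threshold in each alternative that tested them. This is a description and not support, since Meg3 and Rian were chosen on this contrast and Meg3, Mirg, Rtl1 and Dio3 passed the minimum only through WT. Without the filter on low values 624 accessions were higher and 697 lower, with 1 member accession higher, Peg13 and Ascl2 losing their call. In limma without a trend 43 were higher and 37 lower, with 6 member accessions lower and 0 higher (2 at an unadjusted p under 0.05), Peg3, Ndn, Impact, Zrsr1, Grb10, Cd81 and Ascl2 losing their call. With 1 library left out, where the lone library is assumed to vary like the others, the counts ran from 211 to 2730 higher and from 400 to 2797 lower, and for member accessions from 1 to 4 higher and from 9 to 15 lower. Ndn lost its call without H1-TKO replicate 1, and Peg13 and Ascl2 without either H1-TKO library, with log2 fold changes of −1.34 for Ndn, −2.09 and −2.03 for Peg13 and 1.27 and 1.26 for Ascl2. Magel2 gained a call in DESeq2 on the recovered reads, with a pseudocount of 5 and without WT replicate 1, WT replicate 2 or H1-TKO replicate 2, Slc38a4 without either WT library, Nnat without WT replicate 1, and Kcnq1ot1, Plagl1, Commd1 and Nespas without WT replicate 2. The fit with a replicate block gave 1521 higher and 1778 lower and 3 and 13 member accessions, adding Magel2, Plagl1 and Slc38a4. Same-numbered libraries deviated together with r = 0.011 across 11113 accessions, so they share only a number. Without chromosomes 1, 8, 11 and Y, 834 were higher and 856 lower, with 2 and 9 member accessions. With a score of at least 100, members with a peak numbered 5 in WT and 6 in H1-TKO, and with a peak on the start itself 7 and 7. Where no cause is named, it was not tested. Dio3 rested on 34 reads in WT against 9 in H1-TKO and Igf2 on 23 against 2, which sets wide counting intervals, and members with several accessions could mostly not be read.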
